A study of Mus musculus with 6 samples.

Results

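The genes described here are the cyclins and the cyclin-dependent kinases (Cdks) of the mouse, found by their symbols in the count table: the letters Ccn with 1 further letter and any digits, or Cdk with a number and an optional a or b. The rule found 43 of the 23420 gene symbols, 24 cyclins and 19 Cdks. They were measured in mouse embryonic stem (ES) cells held in a self-renewing state, which carried a stably integrated lentivirus for wild-type KBP (libraries 1, 2 and 3) or for KBP(KK/RR), a mutant described as stable (libraries 4, 5 and 6). KBP is the Kif1-binding protein. Both groups therefore carry a lentivirus and an added KBP, and cells without one were not analysed here. The labels do not say whether the libraries of a group came from separate cultures or transductions, so p-values measure the spread between these libraries, which may be technical.

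A Cdk is a protein kinase that is inactive until a cyclin binds it. D-type cyclins with Cdk4 and Cdk6, and E-type cyclins with Cdk2, drive cells from G1 into DNA replication, and A- and B-type cyclins with Cdk1 carry them through mitosis. Other pairs act on RNA polymerase II and on splicing rather than on the cell cycle. ES cells are known for a short G1 phase and rapid division.

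Total counts ran from 24131743 to 32160411 per library, and the members took 0.515% to 0.528% of them. Wild-type KBP replicate 3 stood apart on the second principal component (20.8% of the variance), while the first (31.1%) separated the groups. The gene of KBP itself, whose count cannot separate the endogenous gene from the vector, was at 47.0 to 49.6 CPM (counts scaled to a common library total) with wild-type KBP and at 53.9 to 59.6 CPM with KBP(KK/RR). All 10 ES cell markers on the list were expressed, with a summed level of 6603 to 6653 and 6495 to 6726 CPM, and 1 of them fell, Tbx3 (10.0% called, beside 3.12% of all genes tested; 1 called by DESeq2). An unadjusted p under 0.05 was found for 4 of the 10 (40%, beside 18.6% of all genes tested). For 5 of the 10 the groups did not overlap (50%, 2 higher and 3 lower in KBP(KK/RR)), beside 22.4% of all genes tested. Leaving out library 1, 2, 5 or 6 ended the edgeR call of Tbx3 (adjusted p 0.0543 to 0.124). Markers of fibroblasts or feeders summed to 24.5 to 28.2 and 25.4 to 25.9 CPM (6 of 10 tested, 0 called by edgeR, 0 with an unadjusted p under 0.05, 0 called by DESeq2, which gave an adjusted p to 4). They ranged from Lum, at 0 in the wild-type KBP libraries, to Col1a1, at 8.32 to 10.0 and 7.63 to 8.68 CPM. Markers of primitive endoderm summed to 18.3 to 21.7 and 15.9 to 18.8 CPM (6 of 7 tested), and 1 fell, Pdgfra (16.7% called, 2 with an unadjusted p under 0.05). DESeq2 called 0 of these markers, but gave an adjusted p to only 2 of the 6 and not to Pdgfra. Their median log2 fold change was -0.19, with 5 of 6 below 0. Leaving out any library but 1 ended the edgeR call of Pdgfra (adjusted p 0.0605 to 0.181). Trophectoderm markers (53.9 to 61.6 and 51.3 to 59.0 CPM, 5 of 6 tested) and neural markers (113 to 117 and 112 to 123 CPM, 4 of 5 tested) gave 0 calls with edgeR and 0 with DESeq2, and 0 and 2 of them had an unadjusted p under 0.05. An adjusted p from DESeq2 was given to 4 trophectoderm and 4 neural markers. Where these markers move with a member, their part in it was not tested.

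Nearly all cyclin and Cdk transcripts were at closely similar levels in cells with KBP(KK/RR) and in cells with wild-type KBP. With an adjusted p under 0.05 in edgeR's quasi-likelihood test, 2 of the 41 members that passed the filter on low counts changed: Ccno, the gene of cyclin O, rose and Ccnl2, the gene of cyclin L2, fell. That is 4.88% of the tested members, beside 3.12% of all 14340 genes tested (1.05% higher and 2.07% lower). The median log2 fold change, taken throughout as KBP(KK/RR) minus wild-type KBP, was 0.01 over the members and -0.00224 over all genes tested, with 23 members above 0 and 18 below. Before adjustment, p was under 0.05 for 8 members (19.5%), beside 18.6% of all genes tested. The groups did not overlap for 10 members (24.4%, 7 higher and 3 lower in KBP(KK/RR)), beside 22.4% of all genes tested (11.8% higher and 10.5% lower). Each of these shares is near that of the transcriptome, so the counts show nothing particular to the members. DESeq2 gave an adjusted p to 40 members and called 0 of them, beside 2.72% of all genes with one. In bulk RNA, fewer cells of a type or phase and less RNA per cell cannot be told apart.

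The precision of these libraries was high for the members. For 33 of the 41 tested members the 95% interval of the fold change lay within 1.2-fold in either direction, and for 40 it lay within 1.5-fold, beside 56.0% and 83.1% of all genes tested. The members were also more abundant than most genes, with a median level of 81.6 CPM beside 22.1 CPM over all genes tested. The members whose interval reached past 1.2-fold were Ccno, Ccnl2, Cdk10, Cdk5, Ccna1, Ccng2, Cdk14 and Cdk20. Only for Ccno did it reach past 1.5-fold. Ccnb3 and Cdk15 did not pass the filter and were not tested. Ccnb3 had 0, 3 and 0 reads with wild-type KBP and 5, 0 and 1 with KBP(KK/RR). Cdk15 had 4, 4 and 3 reads against 3, 4 and 8.

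**Figure D1:**
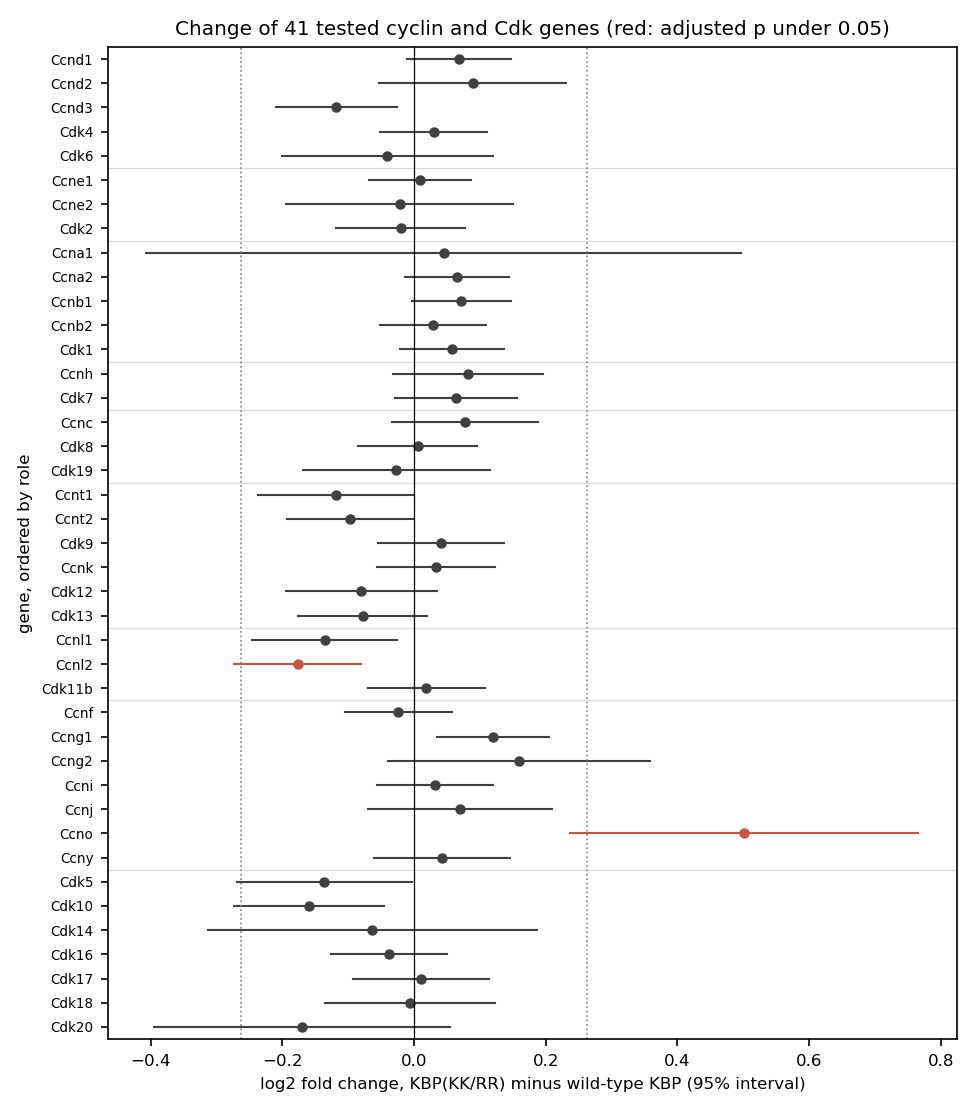
Log2 fold change of each tested member (horizontal axis, KBP(KK/RR) minus wild-type KBP) with its 95% interval, grouped by role from top to bottom; dotted lines mark a fold of 1.2 in either direction. The points of Ccno (0.50) and Ccnl2 (-0.18) are in red as the members with an adjusted p under 0.05, and the others lie between -0.17 and 0.16.

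Levels were compared between genes as CPM per kilobase of the longest annotated transcript. Cdk4 had the highest level of the family in wild-type KBP cells, 260.4 ± 5.81 CPM per kilobase (SD, n = 3). It was followed by Ccne1 (173 ± 3.15), Ccnb1 (161 ± 0.616), Ccng1 (116 ± 2.06) and Ccnb2 (109 ± 0.923). The next in order were Ccnf (88.6 ± 3.53), Ccna2 (86.5 ± 2.06), Ccnd1 (78.9 ± 1.98) and Ccnd3 (67.2 ± 3.69), of which Ccnf and Ccna2 overlapped between libraries and the others did not. At the low end stood Ccno (1.196 ± 0.141), Cdk6 (1.13 ± 0.0821), Cdk14 (0.715 ± 0.0108) and Ccna1 (0.650 ± 0.0187), and then the untested Cdk15 and Ccnb3. Of the 42 pairs of neighbours in this order, 13 overlapped in the wild-type KBP libraries, and 7 members held another place in the order of the KBP(KK/RR) libraries.

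Within families of close relatives, 1 gene usually carried most of the transcript per kilobase. Ccne1 made up 98.2% of the E cyclin level in both groups, Ccna2 99.3% of the A cyclin level, Ccng1 98.7% and 98.6% of the G cyclin level, and Cdk4 99.6% of the level of Cdk4 and Cdk6. The D cyclins were divided between 2 genes, as were the B cyclins. Ccnd1 held 54.1%, 53.8% and 51.3% of the D cyclin level with wild-type KBP and 56.8%, 55.1% and 56.5% with KBP(KK/RR). The groups did not overlap, but with 3 libraries against 3 the exact two-sided permutation test cannot go below p = 0.1, which it gave here (0.8 adjusted over the 12 families compared). In the other 11 families the p of the same exact test ran from 0.2 to 1.

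**Figure D2:**
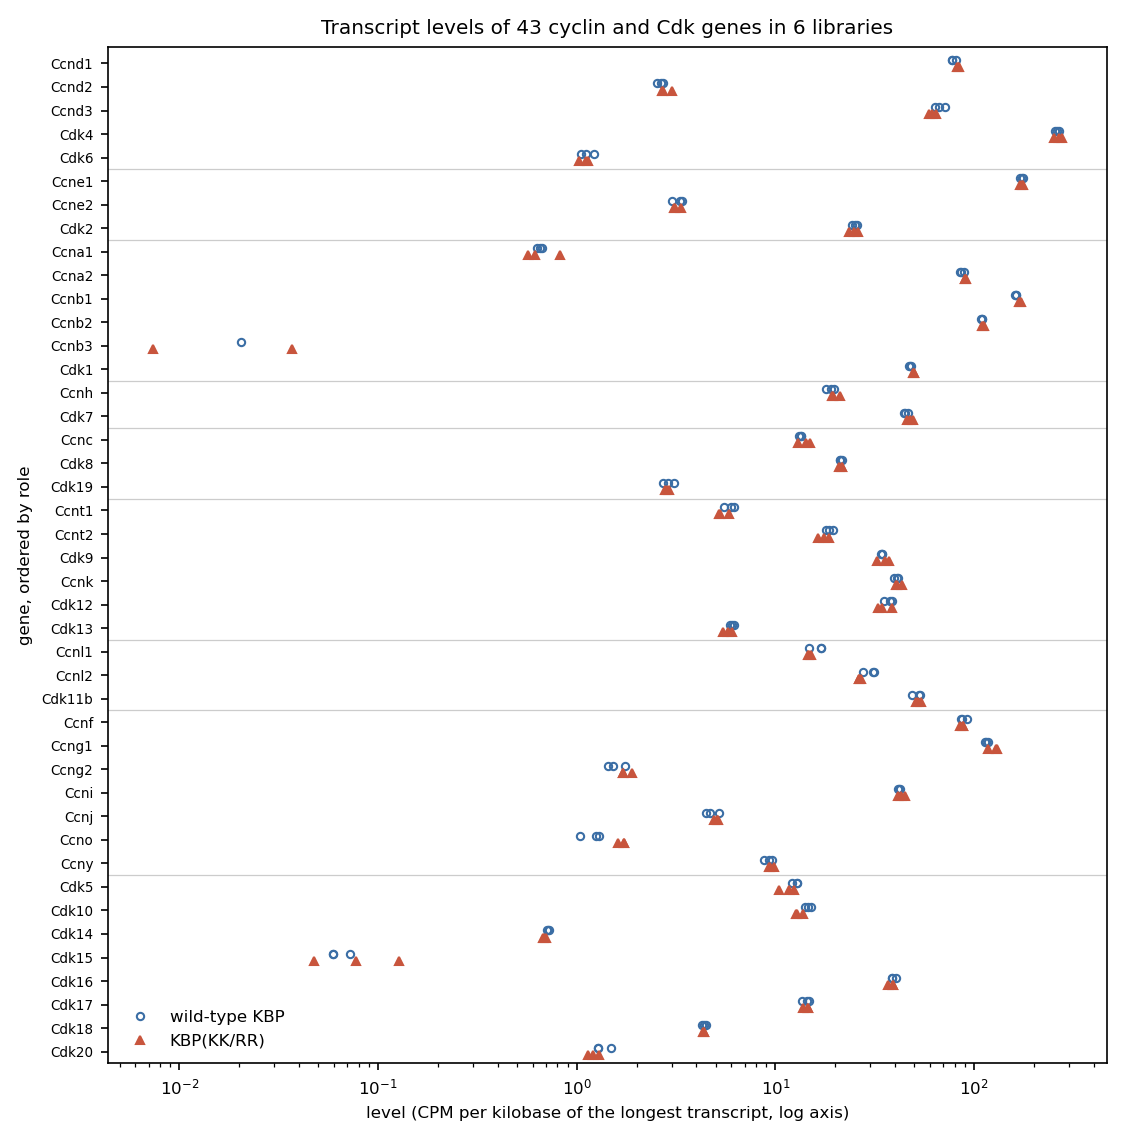
Level of each of the 43 members in each library, in CPM per kilobase of the longest transcript on a log axis, with open circles for wild-type KBP and triangles for KBP(KK/RR); a library with 0 reads has no point. Cdk4 is highest, at 260.4 CPM per kilobase in the wild-type KBP group, and the symbols of the groups lie close together for nearly every gene.

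Among the G1 kinases and their cyclins, 0 of 5 members were called by edgeR or DESeq2, and 1, Ccnd3, had an unadjusted p under 0.05. The D-type cyclin gene Ccnd3 measured 256, 247 and 275 CPM with wild-type KBP (libraries 1, 2 and 3) and 229, 249 and 238 CPM with KBP(KK/RR) (libraries 4, 5 and 6). KBP(KK/RR) library 5 lay above wild-type KBP library 2, so the groups overlapped. For Ccnd3 the difference was -0.12 on the log2 scale (SE 0.04), with an edgeR adjusted p of 0.1503. Ccnd1, the D cyclin with the higher level per kilobase, measured 304, 290.3 and 291 CPM against 306, 309 and 312 CPM. Every KBP(KK/RR) library was above every wild-type KBP library, by a small margin, with a log2 fold change of 0.07 (SE 0.04, edgeR adjusted p = 0.350). After correction for a trend on transcript length and GC content it was 0.06 (edgeR adjusted p = 0.304). By the annotation, 23.4% of the exon bases of Ccnd1 overlap the neighbouring gene LTO1, which lies on the opposite strand. If strand was ignored in counting, reads there could not be told apart.

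The remaining D cyclin gene, Ccnd2, measured 16.1, 17.3 and 16.8 CPM with wild-type KBP and 19.2, 17.2 and 17.1 CPM with KBP(KK/RR). KBP(KK/RR) library 4 was the highest of the 6, and the other KBP(KK/RR) libraries lay within the wild-type KBP range. Cdk4, a kinase partner of the D cyclins, measured 534, 523 and 547 CPM against 521, 566 and 550.4 CPM, with the lowest and the highest value both among the KBP(KK/RR) libraries. Of its exon bases, 19.7% overlap Tspan31 on the opposite strand. Its relative Cdk6 measured 12.8, 12.2 and 14.0 CPM against 13.1, 12.8 and 11.8 CPM, again with overlapping groups. Their log2 fold changes were 0.09 (SE 0.07) for Ccnd2, 0.03 (SE 0.04) for Cdk4 and -0.04 (SE 0.08) for Cdk6. The edgeR adjusted p was 0.516, 0.730 and 0.819. The 95% interval of the fold change was 0.965 to 1.08 for Cdk4 and 0.870 to 1.09 for Cdk6.

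The E-type cyclins and Cdk2 gave 0 calls in edgeR and DESeq2 and 0 unadjusted p under 0.05. Ccne1, whose cyclin activates Cdk2 at the start of replication, measured 339, 347 and 351 CPM in wild-type KBP cells and 342, 353 and 349 CPM in KBP(KK/RR) cells. The groups overlapped almost fully, and the 95% interval of the fold change was 0.954 to 1.06. Ccne2 measured 9.03, 9.97 and 10.2 CPM against 10.1, 9.27 and 9.36 CPM, and 17.4% of its exon bases overlap Ints8 on the opposite strand. Cdk2 measured 79.5, 84.4 and 82.4 CPM against 76.9, 84.8 and 81.4 CPM. For both of these, too, the groups overlapped. The log2 fold changes were 0.01 (SE 0.04) for Ccne1, -0.02 (SE 0.08) for Ccne2 and -0.02 (SE 0.05) for Cdk2, and the edgeR adjusted p was 0.925, 0.916 and 0.858.

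Of the 5 tested members of the A and B cyclins and Cdk1, 0 were called by edgeR or DESeq2 and 0 had an unadjusted p under 0.05. The groups did not overlap for 4 of them, all higher in KBP(KK/RR), beside 11.8% of all genes tested that were higher without overlap. Ccnb1, the gene of cyclin B1, measured 403, 400.0 and 402 CPM with wild-type KBP and 427, 423 and 417 CPM with KBP(KK/RR). The wild-type KBP values were within a few CPM of each other and all below the KBP(KK/RR) values, with a log2 fold change of 0.07 (SE 0.04, edgeR adjusted p = 0.296). Of the runs of 50 bases in its longest transcript, 42.1% also occur in transcripts of other genes, chiefly the pseudogene Ccnb1-ps, so its level depends on how such reads were counted. After correction for a trend on transcript length and GC content, its log2 fold change was 0.03.

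Ccna2, whose cyclin A2 acts in S phase and G2, measured 263, 251 and 256 CPM against 271, 267 and 268 CPM. Here too the groups stood apart, by 0.07 on the log2 scale (SE 0.04), with an edgeR adjusted p of 0.376, and by 0.04 after that correction. Its exon bases overlap those of Exosc9, on the opposite strand, over 12.5%. Ccnb2, the gene of cyclin B2, measured 167, 165 and 168 CPM against 169, 168 and 173 CPM, with a log2 fold change of 0.03 (SE 0.04, edgeR adjusted p = 0.739). Its groups missed each other by a fraction of the spread within them, and its log2 fold change was -0.02 after that correction. Cdk1, the mitotic kinase itself, measured 209, 210.3 and 207 CPM against 219, 218 and 214 CPM. All 3 KBP(KK/RR) libraries were above the wild-type KBP libraries, with a log2 fold change of 0.06 (SE 0.04, edgeR adjusted p = 0.435). After that correction the log2 fold change of Cdk1 was 0.05 (edgeR adjusted p = 0.341). The upper end of the 95% interval of the fold change was 1.11 for Ccnb1, 1.10 for Ccna2, 1.08 for Ccnb2 and 1.10 for Cdk1. Ccna1, the A cyclin known from the germ line, had 26 to 42 reads in every library, overlapping groups and no adjusted p from DESeq2.

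**Figure D3:**
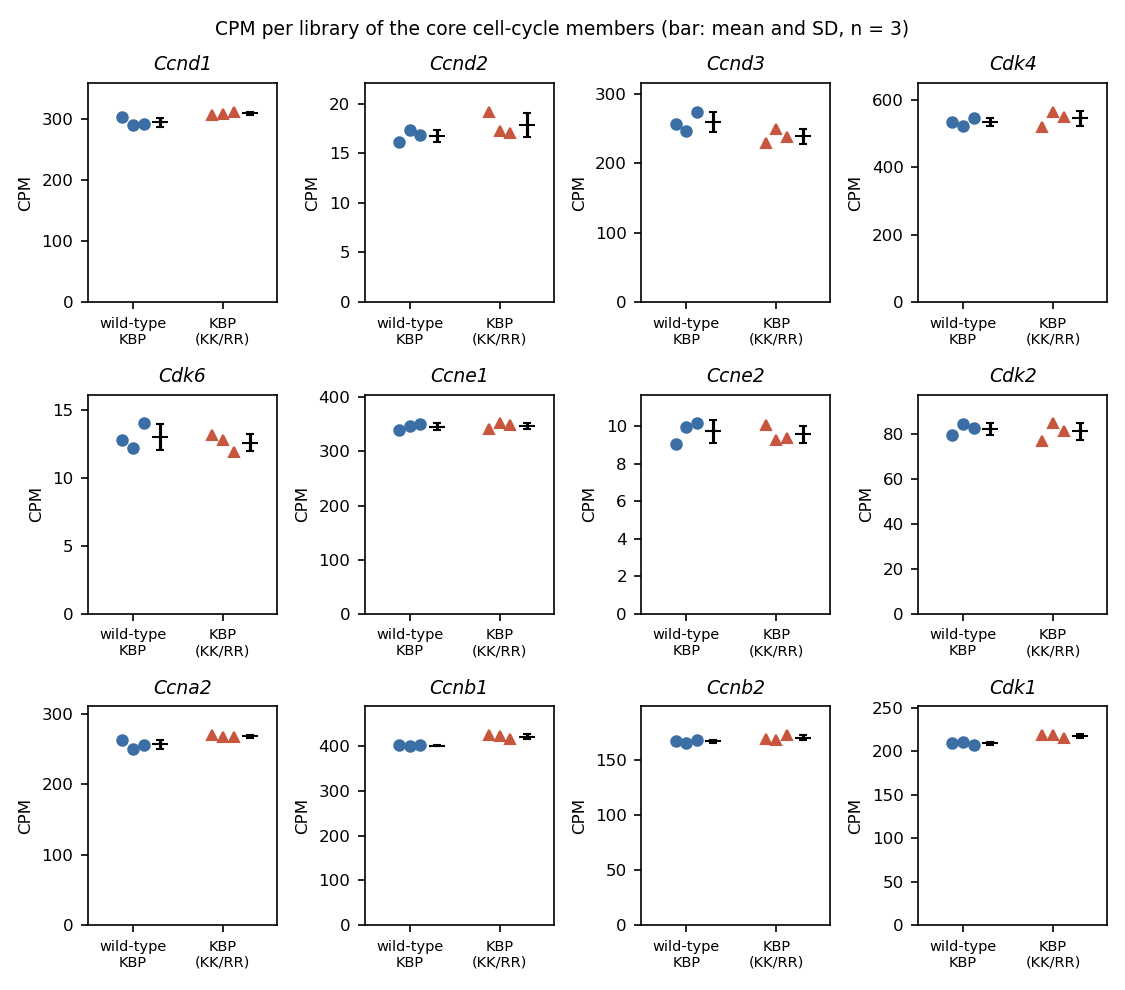
CPM of 12 core cell-cycle members in each library, each panel with its own axis from 0; bars give the mean and SD of 3 libraries. Groups stand apart by a small margin for Ccnd1 (at most 304 against at least 306 CPM), Ccna2, Ccnb1, Ccnb2 and Cdk1, and overlap for the other 7 genes.

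The promoters of genes with a peak in G2 and mitosis are known for a cell cycle genes homology region (CHR) and for CCAAT boxes. RefSeq windows from 250 bases before to 50 after a start site (GRCm38.p6) matched 34 of the 43 members by symbol, with 36 windows. Ccna2, Ccnd1, Ccnd2, Ccne2, Ccnh, Ccny, Cdk5, Cdk17 and Cdk19 had no window and were not searched. The windows of Ccnb1, Ccnb2 and Cdk1 are shown as examples of mitotic members. They were chosen with their letters known, so what they hold is a description. Capitals mark CCAAT (on either strand, so also ATTGG) and the CHR letters TTTGAA (either strand, so also TTCAAA).
Ccnb1, chr13:100786437-100786736, minus strand: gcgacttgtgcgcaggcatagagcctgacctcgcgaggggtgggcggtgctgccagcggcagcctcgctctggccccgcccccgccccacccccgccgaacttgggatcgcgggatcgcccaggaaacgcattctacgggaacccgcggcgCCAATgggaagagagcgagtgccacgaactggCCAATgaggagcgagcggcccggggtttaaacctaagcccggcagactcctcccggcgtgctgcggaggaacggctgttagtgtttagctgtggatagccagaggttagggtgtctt
Ccnb2, chr9:70421505-70421804, minus strand: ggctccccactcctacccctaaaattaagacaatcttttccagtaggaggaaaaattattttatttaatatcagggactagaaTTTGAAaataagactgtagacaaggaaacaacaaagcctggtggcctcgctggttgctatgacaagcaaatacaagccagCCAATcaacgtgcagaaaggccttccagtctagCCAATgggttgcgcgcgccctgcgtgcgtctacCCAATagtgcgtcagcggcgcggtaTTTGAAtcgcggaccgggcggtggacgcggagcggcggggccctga
Cdk1, chr10:69352863-69353162, minus strand: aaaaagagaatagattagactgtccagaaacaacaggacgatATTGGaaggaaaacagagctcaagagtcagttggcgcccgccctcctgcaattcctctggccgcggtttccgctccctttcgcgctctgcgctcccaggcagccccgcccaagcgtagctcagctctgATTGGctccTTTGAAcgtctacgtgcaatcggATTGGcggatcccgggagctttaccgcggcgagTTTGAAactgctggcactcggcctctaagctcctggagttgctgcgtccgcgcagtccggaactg
CCAAT letters stood in 47.2% of the 36 windows of members and in 37.4% of the 32851 windows of all genes. The CHR letters were in 13.9% of the members' windows, those of Ccnb2, Cdk1, Ccnf, Ccni and Cdk16, and in 17.9% of all windows. The window of Ccnb1 holds CCAAT and not TTTGAA on either strand, the only CHR letters searched for. The E2F letters TTCCCGC (or GCGGGAA) were in 1 member window, that of Cdk2, and in 4.60% of all windows. No other form of an E2F site was searched for. GC box letters GGGCGG (or CCGCCC) were in 83.3% of the members' windows and 35.7% of all windows. A match is a description of the letters and not of a bound site.

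Cyclins that work with RNA polymerase II and splicing factors included the member that fell. Ccnl2 (chromosome 4, 155812489 to 155824543, plus strand, GRCm38) encodes cyclin L2, a nuclear speckle protein that pairs with Cdk11 and takes part in splicing. It measured 130.1, 132 and 116 CPM with wild-type KBP (libraries 1, 2 and 3) and 111, 113 and 111 CPM with KBP(KK/RR) (libraries 4, 5 and 6). The KBP(KK/RR) libraries lay close together and below all wild-type KBP libraries, of which replicate 3 was nearest to them. The level fell from 126 ± 8.67 to 112 ± 1.39 CPM (SD, n = 3), a fold of 0.885 (95% interval 0.827 to 0.946), with a log2 fold change of -0.18 (SE 0.05, edgeR adjusted p = 0.0398). Its promoter window is shown as that of a member that changed, with CCAAT in capitals as above.
Ccnl2, chr4:155812239-155812538, plus strand: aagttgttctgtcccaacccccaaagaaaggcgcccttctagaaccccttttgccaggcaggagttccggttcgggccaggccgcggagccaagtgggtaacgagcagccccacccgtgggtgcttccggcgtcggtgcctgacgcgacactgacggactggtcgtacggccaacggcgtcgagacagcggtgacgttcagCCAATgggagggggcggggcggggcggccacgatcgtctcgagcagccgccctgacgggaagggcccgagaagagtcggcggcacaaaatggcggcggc
DESeq2 (adjusted p = 0.0566), upper-quartile scaling (edgeR adjusted p = 0.0621) and leaving out library 1 (0.124), 2 (0.248), 5 (0.0817) or 6 (0.176) each ended this call. When library 3, which stood apart, was left out, the edgeR adjusted p was 0.00573 and the log2 fold change -0.23.

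The paralog Ccnl1, which encodes cyclin L1, measured 70.4, 69.9 and 60.8 CPM against 60.2, 60.7 and 62.4 CPM. As for Ccnl2, wild-type KBP library 3 was the lowest of its group, and for Ccnl1 it lay inside the range of the KBP(KK/RR) libraries. The log2 fold change was -0.14 (SE 0.05) and did not pass the test (edgeR adjusted p = 0.171). It passed when library 3 was left out (log2 fold change -0.20, edgeR adjusted p = 0.0354) and after correction for transcript length and GC content (-0.17, edgeR adjusted p = 0.0181). With other single libraries left out, the edgeR adjusted p of Ccnl1 reached 0.522. The share of Ccnl1 in the summed level of both genes per kilobase was 35.2 ± 0.369% in wild-type KBP cells and 35.9 ± 0.556% in KBP(KK/RR) cells (SD, n = 3). Their kinase partner gene Cdk11b measured 164 ± 8.30 and 167 ± 4.59 CPM (SD, n = 3), with a log2 fold change of 0.02 (SE 0.04, edgeR adjusted p = 0.856).

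The 6 members of the transcription elongation kinases gave 0 calls in edgeR and DESeq2, 1 unadjusted p under 0.05 and a median log2 fold change of -0.08. Cyclins T1 and T2 pair with Cdk9 to form P-TEFb, which releases paused RNA polymerase II. Ccnt2 measured 143, 149 and 138 CPM against 134, 141 and 126 CPM, with overlapping groups. Ccnt1 measured 40.6, 45.9 and 44.4 CPM against 43.01, 39.1 and 38.5 CPM, also overlapping. Their log2 fold changes were -0.10 (SE 0.05) and -0.12 (SE 0.06), and edgeR gave adjusted p of 0.261 and 0.269. After correction for length and GC content they were -0.04 and -0.06. Cdk9 had a log2 fold change of 0.04 (SE 0.05) and cyclin K, the partner of Cdk12 and Cdk13, of 0.03 (SE 0.04; gene Ccnk). Cdk12 and Cdk13 were at -0.08 (SE 0.05 for each). When library 4 was left out, whose Cdk12 level was the highest of its group at 228 CPM, Cdk12 passed the test (log2 fold change -0.15, edgeR adjusted p = 0.0449). With other single libraries left out, its edgeR adjusted p reached 0.844.

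Of the Cdk-activating kinase, which phosphorylates other Cdks and RNA polymerase II, Ccnh had a log2 fold change of 0.08 (SE 0.06) and Cdk7 of 0.06 (SE 0.04). Of the Mediator kinase module, which links Mediator to a cyclin C kinase, Ccnc was at 0.08 (SE 0.05), Cdk8 at 0.01 (SE 0.04) and Cdk19 at -0.03 (SE 0.07). The edgeR adjusted p of these 5 genes ran from 0.451 to 0.965, and 0 of them had an unadjusted p under 0.05 or a DESeq2 call. Cdk8 held 88.1% of the summed level of Cdk8 and Cdk19 per kilobase in wild-type KBP cells and 88.3% in KBP(KK/RR) cells.

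Among the cyclins with other roles, Ccno rose. Ccno (chromosome 13, 112987802 to 112990777, plus strand, GRCm38) encodes cyclin O, which is known for its part in building the many centrioles of multiciliated cells. It had 67, 100 and 77 reads with wild-type KBP and 127, 98 and 128 with KBP(KK/RR), that is 2.56, 3.12 and 3.21 CPM against 4.27, 4.001 and 4.31 CPM. All KBP(KK/RR) libraries were above all wild-type KBP libraries, although at a level among the lowest of the family. The level rose from 2.96 ± 0.349 to 4.19 ± 0.167 CPM (SD, n = 3), a fold of 1.42 (95% interval 1.18 to 1.70), with a log2 fold change of 0.50 (SE 0.13, edgeR adjusted p = 0.0336). Its promoter window is shown as that of the other member that changed; it holds neither CCAAT nor the CHR letters.
Ccno, chr13:112987552-112987851, plus strand: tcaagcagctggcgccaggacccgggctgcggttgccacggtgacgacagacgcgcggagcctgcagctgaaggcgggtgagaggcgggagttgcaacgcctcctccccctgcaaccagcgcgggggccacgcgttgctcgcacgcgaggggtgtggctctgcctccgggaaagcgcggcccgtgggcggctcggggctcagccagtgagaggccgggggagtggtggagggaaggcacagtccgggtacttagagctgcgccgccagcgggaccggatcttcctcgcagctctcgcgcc
DESeq2 (adjusted p = 0.103) and leaving out library 1 (edgeR adjusted p = 0.124), 2 (0.0768), 5 (0.0583) or 6 (0.141) each ended this call. The log2 fold change stayed between 0.41 and 0.55 when single libraries were left out.

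**Figure D4:**
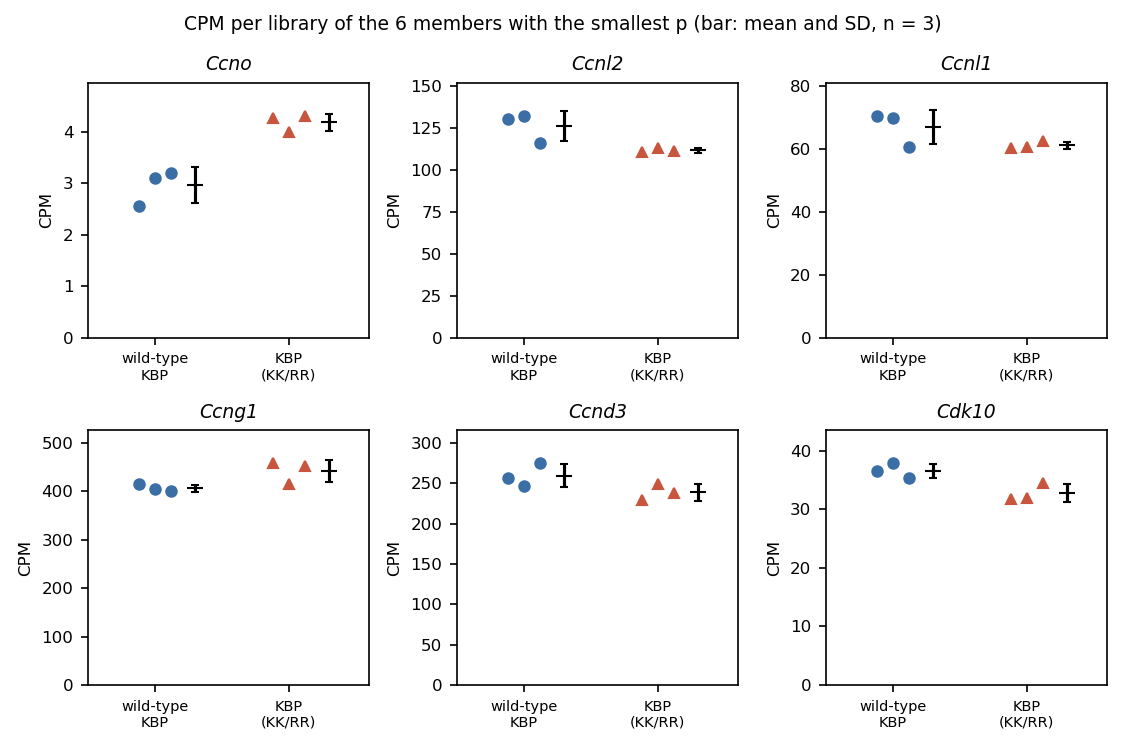
CPM in each library of the 6 members with the smallest p, each panel with its own axis from 0; bars give the mean and SD of 3 libraries. Ccno stands higher in all 3 KBP(KK/RR) libraries (at least 4.001 against at most 3.21 CPM), Ccnl2 lower, and wild-type KBP library 3 is the low wild-type point of Ccnl2 and Ccnl1.

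Ccng1, a p53 target whose cyclin G1 binds a protein phosphatase, measured 414, 404 and 400.4 CPM against 457, 415 and 452 CPM. The groups did not overlap, but KBP(KK/RR) library 5 was level with wild-type KBP library 1 to within 1 CPM. On the log2 scale the difference was 0.12 (SE 0.04), with an edgeR adjusted p of 0.116, and 0.08 after correction for length and GC content. Its paralog Ccng2 was at 0.16 (SE 0.10). Cyclin F is the F-box protein after which the F-box motif was named, and it serves a ubiquitin ligase rather than a Cdk. Its gene Ccnf had a log2 fold change of -0.02 (SE 0.04). The genes Ccni, Ccnj and Ccny were at 0.03, 0.07 and 0.04. None of these 5 genes passed the test in edgeR (adjusted p 0.393 to 0.791).

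Of the 7 tested members of the other Cdks, 0 were called by edgeR or DESeq2 and 2 had an unadjusted p under 0.05. Cdk10, the partner of cyclin M, measured 36.5, 37.8 and 35.4 CPM in wild-type KBP cells and 31.7, 32.0 and 34.5 CPM in KBP(KK/RR) cells. The groups did not overlap, with a log2 fold change of -0.16 (SE 0.06, edgeR adjusted p = 0.117). Of its exon bases, 14.0% overlap other genes, chiefly Spata2l on the opposite strand. Cdk5, a kinase known from neurons that is activated by p35 rather than by a cyclin, measured 26.3, 26.5 and 25.1 CPM against 21.6, 25.5 and 24.0 CPM. KBP(KK/RR) library 5 was inside the wild-type KBP range. The difference was -0.14 on the log2 scale (SE 0.06), with an edgeR adjusted p of 0.256. The related kinase genes Cdk16, Cdk17 and Cdk18 were at -0.04, 0.01 and -0.01, Cdk14 at -0.06 (SE 0.12) and Cdk20 at -0.17 (SE 0.11), with edgeR adjusted p of 0.418 to 0.969.

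Of the CDK inhibitors, proteins that block cyclin-CDK complexes, 0 of 6 tested were called by edgeR or by DESeq2, which gave an adjusted p to 5. The median log2 fold change was 0.07, and 2 had an unadjusted p under 0.05. Those 2 were Cdkn2a (4.86, 4.70 and 6.30 CPM against 6.69, 6.12 and 6.73 CPM; log2 fold change 0.32, SE 0.11, edgeR adjusted p = 0.124) and Cdkn2b (1.38, 1.495 and 1.54 CPM against 2.02, 2.08 and 1.82 CPM; 0.42, SE 0.17, 0.194). They lie next to each other in the genome, and Cdkn2a passed when library 3 was left out (edgeR adjusted p = 0.0372). With other single libraries left out, the edgeR adjusted p of Cdkn2a reached 0.430. Of 21 kinases, phosphatases and partners that act on CDKs, 0 were called by edgeR or by DESeq2, which gave an adjusted p to 17. An unadjusted p under 0.05 was found for 5, and the median was 0.03. The smallest p were those of Ccnb1ip1, a ubiquitin ligase gene named for cyclin B1 (log2 fold change -0.17, SE 0.06, edgeR adjusted p = 0.0916), and Larp7, a component of the 7SK particle that holds P-TEFb inactive (0.14, SE 0.05, 0.105). Ccnb1ip1 passed without a filter on low counts (edgeR adjusted p = 0.0321), after correction for length and GC content (0.00105) and when library 3 was left out (0.0365). With other single libraries left out, its edgeR adjusted p reached 0.372. Of the 8 tested relatives outside the naming rule, 0 were called by edgeR or by DESeq2, which gave an adjusted p to 5. Their median was 0.16, and 2 had an unadjusted p under 0.05, Cdkl1 (log2 fold change 0.74, SE 0.26) and Cdkl2 (0.17, SE 0.06). Each had an edgeR adjusted p of 0.128. Cdkl1 had only 20, 16 and 22 reads against 27, 34 and 38, with overlapping groups and no adjusted p from DESeq2.

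Of 15 ubiquitin ligase factors that act on cyclins, 1 rose and 0 fell (6.67% called, beside 3.12% of all genes tested), and the median log2 fold change was 0.04. The riser was Skp1a, a core SCF subunit, at 292, 282 and 267 CPM against 334, 311 and 333 CPM (log2 fold change 0.22, SE 0.04, edgeR adjusted p = 0.00545), with no overlap between groups. Leaving out library 6 ended this call (0.0608). Ambra1, the receptor of a ligase for D cyclins, had the second smallest p (-0.10, SE 0.05, 0.220).

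The 2 lists of genes tied to phases of the cycle gave 0 calls in edgeR and DESeq2. The list for G2 and mitosis also holds the regulator genes Mybl2, Lin9 and Lin54, so it is not only of transcripts that peak there. Of the 22 genes listed for G2 and mitosis, 3 had an unadjusted p under 0.05, and the median log2 fold change was 0.01. The groups did not overlap for 2 of the 22 (9.09%, 0 higher and 2 lower in KBP(KK/RR)), beside 22.4% of all genes tested. Cenpe, a centromere motor gene, was at -0.15 (SE 0.06, edgeR adjusted p = 0.174) and Birc5, the survivin gene, at 0.09 (SE 0.04, 0.243). Cenpe passed when library 4 was left out (0.00208) and without a filter on low counts (0.0202). After correction for length and GC content the log2 fold change of Cenpe was -0.09 (edgeR adjusted p = 0.137). With other single libraries left out, its edgeR adjusted p reached 0.467. The lowest log2 fold changes of this list were those of the proliferation marker gene Mki67 (-0.39, SE 0.17, edgeR adjusted p = 0.339) and of Cenpf, a kinetochore gene (-0.24, SE 0.13, 0.395), both named after their values were seen. Mki67 measured 321, 407 and 406 CPM against 342, 275 and 251 CPM, and Cenpf 207, 249 and 242 CPM against 225, 182 and 181 CPM. In both genes library 4 was inside the wild-type KBP range. With the correction for length and GC content, Mki67 was at -0.27 (edgeR adjusted p = 0.253). Cenpf passed after correction for length and GC content (log2 fold change -0.12, edgeR adjusted p = 0.0407) and when library 4 was left out (0.0404). With other single libraries left out, its edgeR adjusted p reached 0.670. Of 16 genes of the passage from G1 to S phase, 4 had an unadjusted p under 0.05 and 14 were above 0, with a median of 0.05. For 8 of the 16 the groups did not overlap, all higher in KBP(KK/RR), beside 11.8% of all genes tested. Pcna, the replication clamp, measured 357, 355 and 352 CPM against 377, 379.6 and 381 CPM (log2 fold change 0.10, SE 0.04, edgeR adjusted p = 0.153). After correction for length and GC content its log2 fold change was 0.04 (edgeR adjusted p = 0.524).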

How the data were processed

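Ribosomal RNA was removed from total RNA (RiboZero) before library preparation (ScriptSeq v2), per the labels' protocols. The submitters' processing notes name bcl2fastq, TopHat, HTSeq and DESeq2, with no version, and give mm10 and GRCm38 as builds. How strand was treated in counting, and with which annotation, is not stated in the sources used here. The authors deposited raw read counts per gene symbol and a normalized signal, which the values show to be each count divided by 1 factor per library. With that factor removed, 100% of the deposited signal values above 0 were whole reads (tolerance 0.01), 0 differed from the raw counts, and the count test on them called the same number of genes, 448.

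The counts were tested with edgeR 4.0.16 (R 4.3.3; filterByExpr, TMM, robust quasi-likelihood fit, group as the only term), with Benjamini-Hochberg adjustment over 14340 genes and calls at an adjusted p under 0.05. The standard error is the absolute log2 fold change over the square root of F, and 95% intervals use the test's t distribution. CPM uses TMM-scaled totals. Alternatives used DESeq2 1.42.0, limma 3.58.1 (voom, and log2 of the deposited signal plus 1), other scalings and filters, and a trend on length and GC content (longest GENCODE M21 transcript) removed through offsets. The test on recovered reads was chosen after seeing the data. In simulated counts for this comparison over 14340 genes with 200 changed, 34.0% of 1.2-fold, 74.0% of 1.5-fold and 98.0% of 2-fold changes were found. Replicates differed by more than counting noise (chi-square per degree of freedom 2.69 to 7.19).

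The members and lists were chosen with earlier results of these data known. Per-library values are given for members that were called, the 12 with the smallest p and 12 core cell-cycle genes. From each pathway list the called genes and the 2 with the smallest p are named, some with per-library values; 1 gene that this rule names is not reported here. From the marker lists only called genes and the lowest and highest fibroblast or feeder marker are named, although the rule asked for the 2 with the smallest p as well.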

Additional observations from a re-analysis of the deposited data

How the results depend on the processing

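No paired analysis was possible because the groups share no replicate numbers. Among members, 1 rose and 1 fell; DESeq2 and an adjusted p under 0.01 gave 0 and 0, upper-quartile scaling gave 0 that fell, and the trend on length and GC content gave 2 that fell. Leaving out 1 library gave 0 to 1 members that rose and 0 to 2 that fell. Of the pathway genes 1 rose and 0 fell. The trend gave 2 and 2, no filter on low counts 2 that fell, an adjusted p under 0.1 gave 1 that fell, and omissions gave 0 to 2 and 0 to 2. Over all genes 151 rose and 297 fell. The number that rose was 81 in DESeq2, 235 with upper-quartile scaling, 284 without a filter, 311 with the trend, 42 and 309 at an adjusted p under 0.01 and 0.1. The number that fell was 682 without a filter, and 88 and 514 at those thresholds. Omissions gave 37 to 198 that rose and 85 to 569 that fell. The causes were not tested.

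Uncalled log2 fold changes near 0 turned sign in some settings, uncalled there too. After correction for length and GC content they were -0.016 for Ccnb2, -0.012 for Ccne1, 0.066 for Cdk13, -0.022 for Cdk17, 0.041 for Cdk18, 0.10 for Cdk6 and -0.031 for Cdk8. Upper-quartile scaling gave 0.011 for Cdk18. Over the omissions the range was -0.14 to 0.16 for Ccna1, -0.0049 to 0.022 for Ccne1, -0.071 to 0.0070 for Ccne2, -0.040 to 0.0090 for Ccnf, -0.022 to 0.044 for Cdk11b, -0.021 to 0.040 for Cdk17, -0.019 to 0.012 for Cdk18, -0.069 to 0.030 for Cdk19, -0.053 to 0.016 for Cdk2, -0.087 to 0.014 for Cdk6, -0.0043 to 0.021 for Cdk8 and -0.0030 to 0.095 for Cdk9.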
